A study of Mus musculus with 10 samples.

Results

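The constitutive RUNX1 core described here is a set of 3170 genomic regions that were called as RUNX1 peaks in all 6 chromatin immunoprecipitation sequencing (ChIP-seq) libraries of the series. The members were chosen by measured values. Peaks from the 6 lists were merged wherever they shared at least 1 bp, which gave 64286 regions, of which 4087 were called in every list. Of these, 207 regions of 5000 bp or more were dropped, as were 74 shorter ones starting between 3 and 20 Mb of chromosome 5. From the remaining 3806 regions, the core kept those whose mean fold enrichment in the batch 1 TGFβ libraries was above 1 and below 2 times that in the batch 1 vehicle libraries. The core thus made up 83.3% of the regions shared by all lists within these limits and 4.93% of all merged regions. Another 432 shared regions had a ratio of 2 or more, and 204 had a ratio of 1 or less.

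All libraries came from mouse large biliary epithelial (MLE) cells, a cultured model of the cholangiocytes that line the larger bile ducts. Near-confluent cells received TGFβ at 10 ng/mL overnight or vehicle, and RUNX1 was recovered from enzymatically cut chromatin with a polyclonal antibody. Each treatment had 3 RUNX1 libraries, replicates 1 and 2 in batch 1 and replicate 3 in batch 2, and the 4 input libraries of the series were not analysed here. No genotype, allele or other agent is given for any group, and the labels do not say whether same-treatment libraries of batch 1 were separate cultures, so the spread between them may be technical. Peak lists hold no RNA levels, so the identity of the cells was not checked against marker genes.

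RUNX1 is a transcription factor of the Runt family. It binds DNA together with its partner CBFβ, both at gene starts and at distal enhancers, and is best known for its role in blood development, although it is also expressed in many epithelia. TGFβ signals through receptor kinases that activate SMAD proteins, with which RUNX factors can interact, and in bile ducts it is linked to epithelial injury and fibrosis. Sites that a factor occupies with and without a stimulus form the reference against which gained sites are judged. The peak lists use the GRCm39 build, per the submitters' processing notes. Regions are given by their 1-based coordinates in that build, and were not assigned to genes, promoters or motifs here because the gene and promoter tables in hand are on GRCm38.

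The lists held between 14733 and 42050 peaks. Read totals are unknown, but the number of overlapping fragments at each summit (the pileup) and the background used by the peak caller could be recovered from the deposited fold and p-value. Core summits had a median pileup of 51 to 94 fragments in the 4 batch 1 lists and of 48 and 41 in TGFβ and vehicle replicate 3. The background at these summits was low. Its median ran from 10.4 to 12.0 fragments over the 6 lists, and at most 22 core regions in any list exceeded 2 times the low background of that list.

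Core regions were enriched above the typical peak of each list. The need for a call in all 6 lists and the use of the strongest peak per region favour this, in fold and in −log10 q. The values are the authors' fold enrichment at the summit, taken from the highest peak of a list in each region. Where values of a treatment are listed, they follow the order of replicates 1, 2 and 3. The median fold over the core was 5.43, 7.71 and 3.81 under TGFβ. Under vehicle it was 4.11, 5.18 and 3.05. Over all 3806 shared regions, 83.3% of them core, it was 5.64, 8.01 and 3.76 under TGFβ and 4.18, 5.24 and 3.05 under vehicle. Over all peaks of a list, the median fold lay between 2.42 and 3.33. Core folds were lowest in batch 2, and in each of the 3 pairs of libraries (same replicate number, paired by batch and title wording) the TGFβ median was above the vehicle median. By −log10 q, the median core peak stood at the 75.2 to 87.9 percentile of its list. Peaks inside core regions made up 11.5%, 7.81% and 18.9% of the TGFβ lists. They took up 25.2%, 17.2% and 21.0% of the vehicle lists, which were shorter within each pair.

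**Figure D1:**
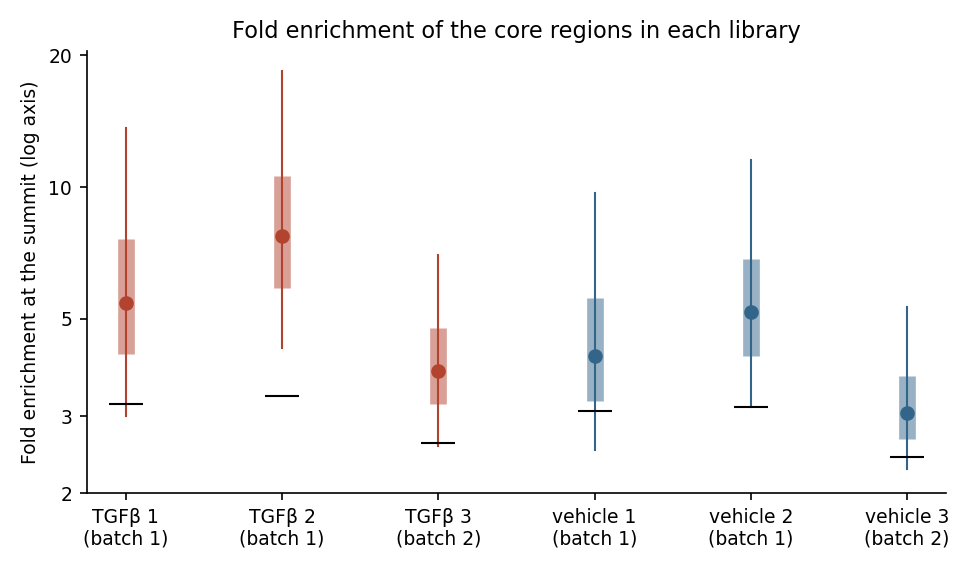
Fold enrichment at the summit (log axis) of the 3170 core regions in each library. Points are medians, thick bars the middle 50% and thin lines the 5th to 95th percentile of regions, and black dashes mark the median of all peaks in that list. Core medians run from 3.05 (vehicle replicate 3) to 7.71 (TGFβ replicate 2), above the list median in all 6 libraries, which the choice of members favours.

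Among the top 1000 peaks per list, ranked by −log10 q, 272, 321 and 665 lay in core regions under TGFβ, and 572, 591 and 511 under vehicle. The batch 1 TGFβ lists had the lowest numbers. The rule removes the sites with the highest ratio in those lists, so this order is partly set by the choice of members. Shared regions with a ratio of 2 or more held a further 211 and 213 of the top peaks in the batch 1 TGFβ lists, against 28 to 111 in the other 4.

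The 5 core regions with the highest fold in their weakest library were strong in every list. The first, chr9:69919332-69921280, had folds of 18.6, 26.9 and 14.6 under TGFβ, against 15.2, 18.6 and 11.6 under vehicle. Its pileups were 229, 306 and 174 fragments, against 176, 229 and 148. TGFβ was higher within each pair, but the groups overlapped, since TGFβ replicate 3 lay below vehicle replicates 1 and 2. In 4 of the 5 regions both batch 2 folds were below the batch 1 folds of their own treatment, and chr4:126860255-126862421 was the exception.

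At chr4:126860255-126862421 TGFβ folds of 12.8, 17.4 and 13.5 stood against vehicle folds of 12.8, 15.7 and 11.6, so that pair 1 was level (ratio of 1.00). At chr11:120563446-120564905 TGFβ folds were 20.3, 28.9 and 14.0, against 15.2, 20.9 and 11.1. At chr17:87752985-87756046 TGFβ folds were 23.2, 28.4 and 15.0, against 18.5, 20.2 and 11.0. The last 2 regions had similar pair ratios, from 1.25 to 1.41 over both regions.

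The fifth region, chr11:60617108-60621243, had the highest batch 1 folds of the 5. TGFβ folds were 31.9, 44.4 and 14.1, against 29.8, 32.9 and 10.5. The batch 2 background there was 25.1 fragments under TGFβ and 21.7 under vehicle, above the low background of those lists. Its 6 summits lay within 25 bp, between 60619450 and 60619475. In the other 4 regions the 6 summits spanned 106, 96, 94 and 52 bp, in the order given. All 5 regions ranked at or above the 97.5 percentile of −log10 q in each of the 6 lists.

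A second group of 5 was named for constancy, as the core regions with the smallest departure from a ratio of 1 in any of the 3 pairs. They were moderate to weak sites. At chr2:180097191-180098384 TGFβ folds were 5.51, 7.71 and 3.07, against 5.20, 7.33 and 3.10 under vehicle, with pair ratios of 1.06, 1.05 and 0.991. At chr11:61744710-61746766 they were 4.86, 5.81 and 4.31, against 4.56, 5.72 and 4.15. The choice for near-equal pairs fixes the closeness of the libraries within a pair, while the level still varied between pairs.

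At chr12:101941600-101942965, folds of 3.65, 6.84 and 3.55 stood against 3.68, 6.38 and 3.59. The region chr2:165834159-165835302 was the weakest of the group, with folds of 2.85, 3.34 and 2.75 against 2.66, 3.31 and 2.86. In replicate 1 it lay below the list median fold, 3.20 under TGFβ and 3.08 under vehicle. The last, chr3:94728222-94729882, had folds of 3.97, 5.26 and 3.03 against 3.84, 4.85 and 2.89. In all, 110 core regions (3.47%) stayed within 1.2-fold either way in all 3 pairs, beside 161 of the 3806 shared regions (4.23%), and the limits on the batch 1 ratio bear on the share in the core.

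**Figure D2:**
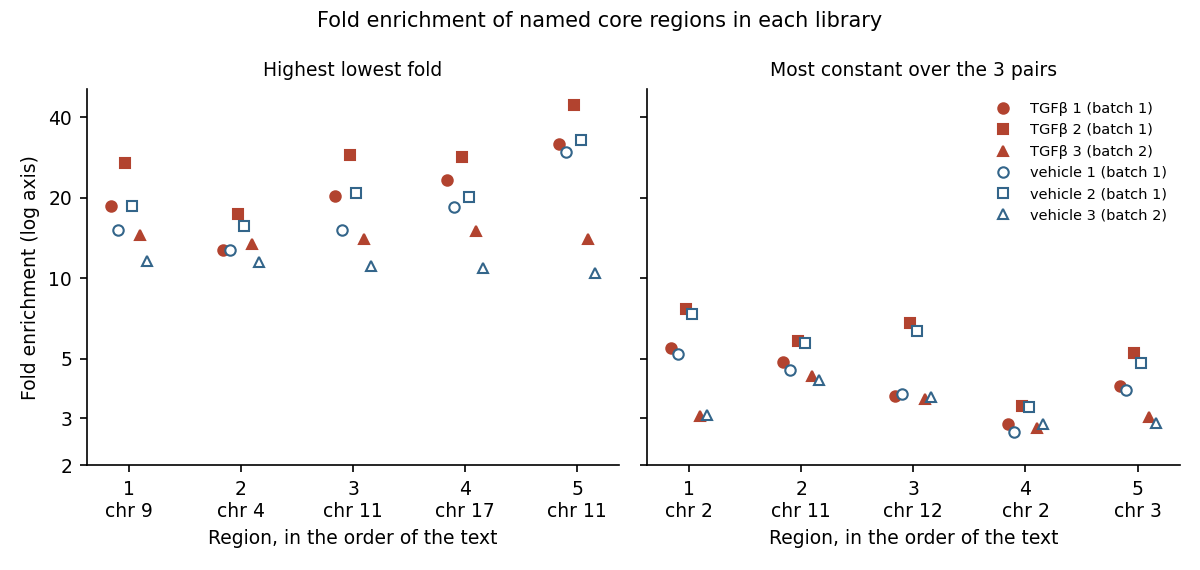
Fold enrichment (log axis) in each of the 6 libraries for the 5 core regions with the highest fold in their weakest library (left) and the 5 most constant over the 3 pairs (right), in the order of the text. The strong sites range from 10.5 to 44.4 and the constant sites from 2.66 to 7.71, with TGFβ in filled and vehicle in open symbols.

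The label "constitutive" describes presence in every list more closely than an equal level. In batch 1 the median ratio of the core was 1.40, and the middle 50% of members lay between 1.23 and 1.60. Because the rule required a ratio between 1 and 2, these values describe the selection and are not tested. Over all regions called in the 4 batch 1 lists, 74.2% met the same limits. Within pairs, 2487 members lay between 1 and 2 in both pair 1 and pair 2, while 339 were below 1 in pair 1 and 70 were below 1 in pair 2. The 3 TGFβ folds were all above the 3 vehicle folds in 241 members (7.60%), beside 7.36% of all shared regions.

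The members nearest the limits show how little separates them from their neighbours. Just inside the lower limit, chr5:36852172-36854983, chr11:76512817-76515125 and chr15:88972630-88974046 had ratios that round to 1.00. Just outside it, chr19:6955924-6959352, chr15:96181940-96186033 and chr2:14608621-14610282 had ratios of 0.999, 0.999 and 0.998. In all 6 regions, pairs 1 and 2 fell on opposite sides of 1. Their batch 2 ratios were 1.24, 1.33 and 1.87 inside and 1.49, 1.43 and 1.17 outside. At the upper limit, 3 members (chr15:88702578-88704688, chr15:8136757-8139398 and chr13:73751380-73752842) and 3 regions beyond it (chr16:33413101-33416380, chr7:35501772-35502952 and chr13:22189658-22190889) all had ratios that round to 2.00. Batch 2 ratios there were 1.79, 1.38 and 1.21 inside and 0.927, 0.942 and 1.08 outside.

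The fold in batch 2 was not used to choose the members, beyond the presence of a call, so it gives a separate view of the treatment contrast. It holds 1 library per treatment and allows no test. In the core, the TGFβ fold was above the vehicle fold in 2760 of 3170 regions (87.1%, exact binomial 95% interval 85.8% to 88.2%, counting error over regions only). The same share was 86.3% over all 3806 shared regions. The core makes up 83.3% of these, so values over the shared regions are bound to lie close to its own. Over all regions called in both batch 2 lists, which include the core, it was 79.4%. The median batch 2 ratio of the core was 1.23, with the central 90% of regions between 0.910 and 1.70. Over all shared regions the median was also 1.23. A ratio of 2 or more was seen in 22 core regions (0.694%), beside 0.867% of shared regions and 0.626% of all regions called in both lists.

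Outside the core, regions called in both batch 2 lists but not in all 6 lists had a median batch 2 ratio of 1.04, with 61.8% above 1. Dividing each library by its median fold over the shared regions brought the core's median to 0.996, which the scaling itself sets close to 1 because the core makes up 83.3% of those regions. With the recovered pileup in place of the fold, 77.3% of the regions that then met the rule were above 1, with a median of 1.17. In batch 2 the low background was 10.5 fragments under TGFβ and 11.8 under vehicle.

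The batch 1 classes lay close together in batch 2, with the lowest values in the regions without a batch 1 gain. Shared regions with a batch 1 ratio of 2 or more had a median batch 2 ratio of 1.22, those in the core 1.23, and those with a ratio of 1 or less 1.17. The matching batch 1 medians, set by the rule, were 2.35, 1.40 and 0.936. Their 95% intervals in batch 2 were 1.195 to 1.263, 1.221 to 1.241 and 1.119 to 1.220, of which the last lies just below that of the core. The share above 1 was 83.6%, 87.1% and 79.4%, with exact binomial 95% intervals of 79.7% to 86.9%, 85.8% to 88.2% and 73.2% to 84.7%. These intervals cover regions of the same 2 libraries, not replicates. Within the core, regions with a batch 1 ratio below 1.2 had a median batch 2 ratio of 1.22 (639 regions), and those at 1.8 or more had 1.25 (286 regions). Across the 3806 shared regions, Spearman's rho between the batch 1 and batch 2 ratios was 0.036, while it was 0.62 between pairs 1 and 2 of batch 1. Within the core it was 0.0256 and 0.399, over a range of batch 1 ratios that the rule narrows. These correlations are across regions of the same libraries, and regions are not independent replicates.

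**Figure D3:**
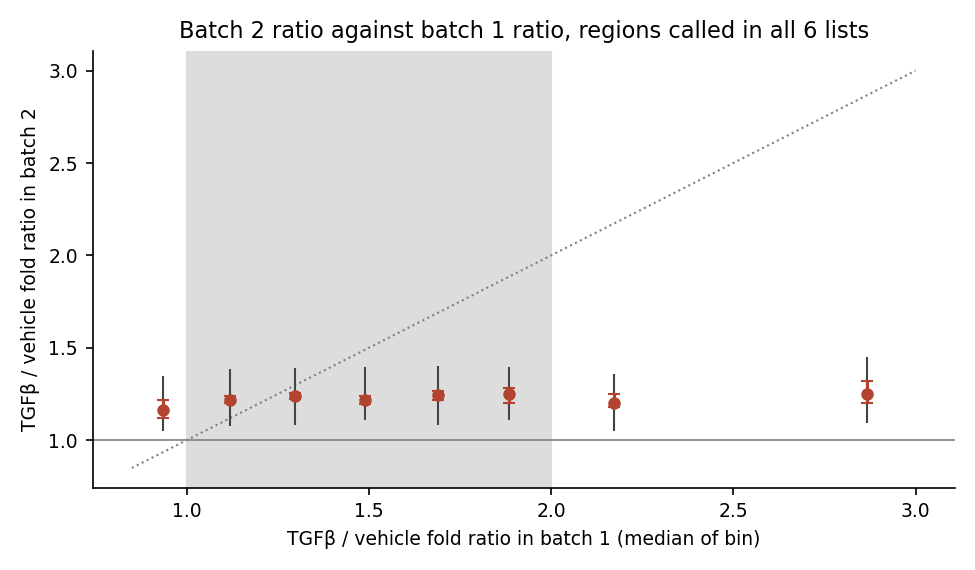
TGFβ to vehicle fold ratio in batch 2 (vertical axis) against that in batch 1 (horizontal axis) for the 3806 regions called in all 6 lists, in 8 bins of the batch 1 ratio. Points are bin medians with their 95% binomial intervals, thin lines the middle 50% of regions, the grey band the limits of the core, the horizontal line a batch 2 ratio of 1 and the dotted line equal ratios. The medians in batch 2 lie between 1.17 and 1.25 in all bins.

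Whether a site was called in batch 2 at all also varied with the batch 1 ratio. Of 8117 regions called in the 4 batch 1 lists with a ratio between 1 and 2, 3170 (39.1%) were also called in both batch 2 lists and so form the core. A further 1603 were called in TGFβ replicate 3 and not in vehicle replicate 3, 230 in vehicle replicate 3 and not in TGFβ replicate 3, and 3114 in neither. Over all 10940 regions called in the 4 batch 1 lists, which include these 8117, 3806 were called in both batch 2 lists. The counts in a single batch 2 list were not taken over all of them. Among 2140 regions with a batch 1 ratio of 2 or more, 20.2% were called in both batch 2 lists. Among 683 with a ratio of 1 or less, 29.9% were. These shares were not tested, and a site missing from a batch 2 list may have fallen short of its threshold by little.

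Of the members with the most extreme batch 2 ratios, the highest, 2.47, was at chr14:21881010-21882102. Its batch 2 folds were 9.44 under TGFβ and 3.83 under vehicle. There the pileups were 108 fragments (exact Poisson 95% interval 88.6 to 130, counting error only) and 48 (35.4 to 63.6). Here and at the other extreme regions below, the batch 2 ratio made the pick. A gap between such intervals thus follows from the choice and lends the ratio no support. In batch 1 it had 8.59 and 11.9 under TGFβ, against 5.67 and 7.67, a higher TGFβ level in both pairs.

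At chr4:126214702-126215787 the batch 2 ratio was 2.37, from folds of 5.37 and 2.27 and pileups of 61 (46.7 to 78.4) and 28 (18.6 to 40.5) fragments. Its vehicle replicate 3 peak was weak, at the 13.6 percentile of −log10 q. In batch 1 the folds were 4.45 and 6.98 under TGFβ, against 4.80 and 5.65. Pairs 1 and 2 thus went in opposite directions at this site. At chr10:80233736-80235886 the ratio was 2.30, from folds of 7.01 and 3.05 and pileups of 80 (63.4 to 99.6) and 38 (26.9 to 52.2) fragments. This last region also had a high batch 1 ratio of 1.93.

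In the opposite direction, the lowest batch 2 ratios were 0.661 at chr11:21951135-21953254, 0.665 at chr4:46450529-46453116 and 0.671 at chr1:74287206-74289570. At the chromosome 11 region the batch 2 fold was 2.34 under TGFβ and 3.55 under vehicle, with pileups of 28 (18.6 to 40.5) and 46 (33.7 to 61.4) fragments. In batch 1 the same region had folds of 5.11 and 6.31 under TGFβ, against 3.33 and 2.83, a ratio of 1.86. At the chromosome 4 region the batch 2 folds were 3.64 and 5.47, and at the chromosome 1 region 2.53 and 3.76. The summits of the 6 lists spanned 1004, 1744 and 403 bp in these 3 regions, so the strongest peaks of a region did not lie at the same position in every list.

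The fold of core sites ranked alike within a batch and less so across batches. Spearman's rho of the fold over the 3170 core regions was 0.836 and 0.895 between batch 1 libraries of the same treatment, and 0.732 between the 2 libraries of batch 2. Between TGFβ and vehicle libraries of batch 1 it was 0.815 to 0.863, but the limits on the batch 1 ratio hold these folds together. Over the 3806 shared regions, without those limits, it was 0.842 and 0.920 within a treatment and 0.740 to 0.788 between treatments. Across batches, in 8 pairs of libraries, it was 0.416 to 0.562 over the core and 0.306 to 0.513 over the shared regions. In 2315 members (73.0%) the lowest of the 6 folds was that of vehicle replicate 3. TGFβ replicate 2 gave the lowest fold in 0 members, and vehicle replicate 1 in 424. The limits on the batch 1 ratio partly set these counts, which were not taken over all shared regions.

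Summit position, which the rule did not use, showed where in a region the 6 lists placed the strongest signal. The outermost of the 6 summits lay a median of 268.5 bp apart in the core, within regions of a median length of 1968 bp. Summits lay within 100 bp of each other in 543 core regions (17.1%) and spread over more than 1000 bp in 295 (9.31%). Over all 3806 shared regions, 83.3% of them core, these shares were 16.4% and 9.49%. In shared regions with a ratio of 2 or more the median spread was 362 bp, and in those with a ratio of 1 or less 193 bp. Their 95% intervals were 314 to 399 and 168 to 260 bp, and that of the core was 252 to 289 bp. These regions also differed in length, with medians of 2512 and 1765 bp, and the part of length in the spread was not tested.

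Summits were compared between libraries as well. Between the TGFβ and the vehicle library of a pair, the core summits lay a median of 68, 55 and 50 bp apart in pairs 1, 2 and 3. Between libraries of the same treatment in batch 1 the distance was 38 bp with TGFβ and 48 bp with vehicle. Across batches, summits of the same treatment lay 121 and 105 bp apart with TGFβ and 88 and 78 bp apart with vehicle. The summits thus agreed more closely within a batch than across batches. Regions that held a single peak in all 6 lists (1891 of 3170) had a median spread of 200 bp, and the 1279 with 2 or more peaks in some list had 447 bp.

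Stronger core sites had better aligned summits. The members were divided into 4 strength groups of 757 to 828 regions by their lowest fold over the 6 lists. The median spread was 448, 364, 224 and 118 bp from the weakest to the strongest group. The share with all 6 summits within 100 bp was 4.95%, 9.25%, 15.9% and 38.6%. Spearman's rho between the spread and the lowest fold was -0.457 across the core regions and -0.446 across all 3806 shared regions.

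**Figure D4:**
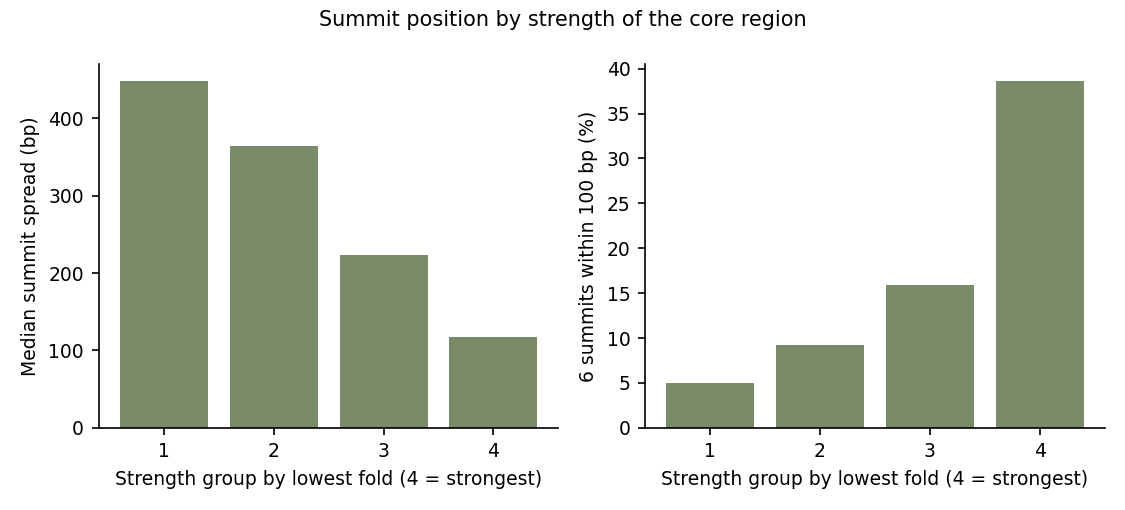
Core regions in 4 strength groups by their lowest fold over the 6 lists, from the weakest (1) to the strongest (4). Left, the median distance in bp between the outermost of the 6 summits falls from 448 to 118 bp. Right, the share of regions in percent whose 6 summits lay within 100 bp goes from 4.95% to 38.6%.

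Core peaks were wider in the TGFβ library of each pair. Under TGFβ the median width of the strongest peak was 1271.5, 1825 and 566 bp, against 786, 1189.5 and 420 bp under vehicle. The groups overlapped because both batch 2 libraries had narrow peaks. The means were 1221 ± 631 bp with TGFβ (SD, n = 3) and 798.5 ± 385 bp with vehicle (SD, n = 3), and the difference of 422 bp did not pass the two-sided exact permutation test over libraries (p = 0.4, where 0.1 is the smallest possible). Within pairs, TGFβ peaks were wider by factors of 1.62, 1.53 and 1.35, and the exact sign-flip test gave p = 0.25, the smallest that 3 pairs allow. Peak width of a single member followed the same direction in 2808, 2926 and 2430 of the 3170 regions in pairs 1, 2 and 3, that is 88.6%, 92.3% and 76.7%. Over all shared regions these shares were 88.2%, 92.1% and 76.4%. The core makes up 83.3% of those regions, so this closeness does not compare the core with other sites. Shared regions with a ratio of 2 or more had width ratios of 1.70, 1.70 and 1.58 in the 3 pairs, and those with a ratio of 1 or less 1.36, 1.49 and 1.27. The fold of the same members was also higher with TGFβ, and its part in the width was not tested. Without TGFβ replicate 2 the difference was 131.5 bp, without vehicle replicate 3 it was 236 bp, and without TGFβ replicate 3 it was 738 bp. All 3 kept the direction, and the exact permutation test gave p = 0.8, 0.8 and 0.2 in that order. Without TGFβ replicate 3, every remaining TGFβ median width lay above every vehicle median width. With so few libraries the permutation test could not be passed in any of the 3, so no conclusion is drawn from these p-values.

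Core regions were found on all 19 autosomes and were unevenly spread. Chromosome 11 held 381 of them (12.0%), against 7.90% of all merged regions within the same limits. All shared regions had the same excess, with 458 of 3806 (12.0%) on chromosome 11, of which 83.2% were core. Of the merged regions on chromosome 11, 8.17% belonged to the core, beside 5.37% over all chromosomes. Chromosomes 8, 16 and 5 followed at 6.87%, 6.59% and 6.54%. The lowest autosomal shares were 3.75% on chromosome 10 and 3.79% on chromosome 14. Chromosome X had 5 core regions among its 333 merged regions. No chromosome was tested against the others, since they share the same libraries.

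**Figure D5:**
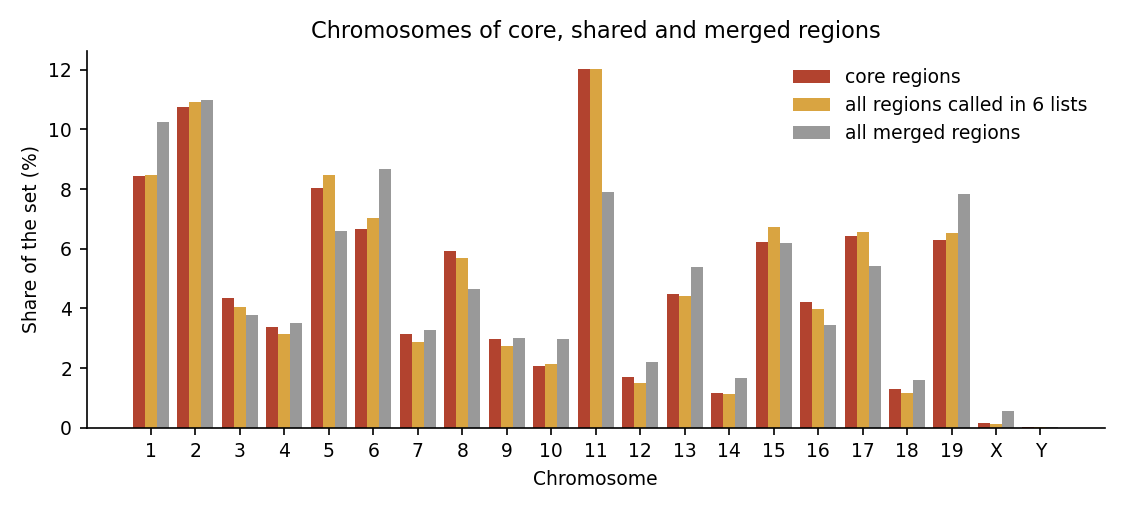
Share in percent of the 3170 core regions, of the 3806 regions called in all 6 lists and of all 59034 merged regions within the same limits on each chromosome. Chromosome 11 holds 12.0% of the core, 12.0% of the shared regions and 7.90% of all merged regions.

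The spacing of core sites was measured in the core alone, with no reference share beside it. Merging overlapping peaks and dropping wide regions also bear on it. The median gap between neighbouring members on a chromosome was 199139 bp, and 236 members (7.44%) had another within 10000 bp. They formed 115 runs, of which 6 held 3 members and none held more. The runs of 3 on assembled chromosomes were chr6:72321506-72332956, chr6:83085570-83099285, chr17:45865989-45885817, chr17:34126721-34149022 and chr7:126830398-126854961.

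The remaining run of 3 lay on the unplaced contig MU069435.1, which held 5 core regions. These, and the regions on the sex chromosomes, were singled out after their values were seen. On this contig the caller's background was far above the rest of the genome: at the region from 10591 to 11206 it was 2320, 2073 and 1138 fragments under TGFβ, against 2338, 2531 and 1288 under vehicle. The fold there was 1.27, 1.27 and 1.63, against 1.25, 1.16 and 1.72, and it was the lowest of the core in 3 of the 6 lists (TGFβ replicate 2 and vehicle replicates 2 and 3). The region from 29721 to 31116 reached batch 2 folds of 8.58 (TGFβ) and 8.14 (vehicle), but 1.90 to 2.32 in the 4 batch 1 lists. In all, 10 core regions lay above 2 times the low background in all 6 lists, 5 of them on this contig, and without them 87.2% of members were above 1 in batch 2, with a median ratio of 1.23.

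On chromosome X, the region chrX:168102755-168103945 was higher with TGFβ in every pair. Its folds were 6.40, 7.80 and 5.98, against 3.77, 4.77 and 3.59, and the groups did not overlap. The same held in 241 core members (7.60%). At chrX:76552614-76554780, chrX:151015931-151016672 and chrX:169097708-169098559 TGFβ was also higher in every pair, but the groups overlapped. At chrX:12118185-12118841 the folds were 10.1, 13.6 and 3.20, against 6.25, 8.16 and 3.44, so batch 2 went the other way. The single core region of chromosome Y, chrY:90816039-90816663, had 2.92, 2.83 and 3.83, against 1.80, 1.73 and 2.23. Its groups did not overlap, and its pair ratios were 1.63, 1.63 and 1.72. The background there was raised in batch 1, at 23.7 to 35.3 fragments. Its peaks in vehicle replicates 1 and 2 were weak, at the 8.90 and 9.44 percentile of −log10 q.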

How the data were processed

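RUNX1 ChIP-seq peak lists of 6 libraries were used, 3 per treatment. Per the submitters' processing notes, Trimmomatic, Bowtie2 2.5.2, MACS2 and DRAGEN were used and the build was GRCm39. Their roles and settings, and the input used as control, are not given in the sources used here. The deposited lists, 1 per library, are in narrowPeak format. They give the authors' fold enrichment (a ratio over the local background), −log10 p, −log10 q and a score, which was not used. The lowest −log10 q of each list lay just above 1.

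Peaks sharing at least 1 bp were merged. Per list and region, the fold was that of the highest peak, while the summit and width were those of the peak with the highest −log10 q. Pileup and background were recovered by taking the fold as (pileup + 1)/(background + 1) and p as the Poisson tail. A whole pileup matched within 0.001 on the −log10 p scale in at least 99.9% of core peaks of each list. The low background is the lowest percentile of a list. Peak lists hold no counts per region, so no count model was fitted. Intervals of medians come from binomial order statistics over regions, taken as independent, and cover variation between regions. Intervals of shares and pileups cover counting error only, and none covers replicates. Single values were compared by exact permutation over libraries, and code was tested on simulated data. Python 3.11.15, pandas 2.3.3, scipy 1.17.1 and matplotlib 3.10.9 were used.

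The members and lists were chosen with earlier results of these data known. Regions were named by fixed rules: the highest fold in the weakest library (5), the smallest largest departure of the 3 pair ratios from 1 (5), the nearest to each limit (3 on each side), and the highest and lowest batch 2 ratio (3 each). Libraries were paired by batch and title wording. Over the shared regions, the correlation (Pearson's r) of the deviations from the treatment mean was 0.568 for pair 1, 0.512 for pair 2 and 0.729 for pair 3, and 0.215 within batch 1 alone. Alternatives were a stricter q, summit windows, another peak per region, scaled folds, narrower limits, limits per pair, no dropped regions, and leaving out each library. Calls required in batch 1 only and the recovered pileup were added after the data were seen. Shares at gene starts and with a RUNX motif, gene lists and sequences were not analysed, since the tables in hand are on GRCm38.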

Additional observations from a re-analysis of the deposited data

How the results depend on the processing

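The number of core regions (3170) came to 1862 when peaks needed a −log10 q of 5 or more, 1963 with windows of 200 bp on the summits, 1705 with each library divided by its median fold, 2031 with a ratio below 1.5, and 8117 with calls required in batch 1 only. Leaving out 1 library gave 2662 to 4772, the highest without vehicle replicate 3. Of the 3170 members, 1355 met the rule with scaled folds. The share of members above 1 in batch 2 (87.1%) was 88.5% at the stricter q and 77.3% with the recovered pileup. It turned to 48.5%, and the median batch 2 ratio (1.23) to 0.992, with scaled folds. This follows from the scaling, which sets the typical shared region to the same level in every library. The median was 1.17 with the recovered pileup. Leaving out 1 batch 1 library gave shares of 86.1% to 86.6% and medians of 1.22 to 1.23, and no value without a batch 2 library.

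The median summit spread (268.5 bp) was 164 bp at the stricter q, 137 bp with summit windows and 308 bp with scaled folds. It was 208 to 258 bp with 1 library left out, by construction over 5 summits. The width difference kept its direction under all alternatives run, from 131.5 to 738 bp with 1 library left out. With the replicate block it was 422 bp (exact sign-flip p = 0.25) and in batch 1 alone 560.5 bp (exact permutation p = 0.333, the smallest possible), and none of these designs with so few libraries could reach 0.05. Unless stated, the cause was not tested. Without read counts, a site missing from a list can lie just under its threshold, and with 1 library per treatment batch 2 gives no error for its ratios.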
